A study of Homo sapiens with 12 samples.

Results

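CITED1 and 7 other regulators of early kidney development, CITED2, LHX1, PAX2, PAX8, SALL1, WT1 and OSR1, were followed in HEK293, an established human embryonic kidney cell line, in which the transcription factor RPF-1 could be switched on. The members were taken as every probe on the array whose gene symbol is one of these 8 names, which gave 10 probes of 22184, for 8 of the 16578 genes with a symbol on the array. They were read in 4 groups of 3 arrays. RPF1 Tet- cells were stable pTRE2puro transfectants with an RPF-1 cDNA from which tetracycline (Tet) was withdrawn, which switched RPF-1 on; RPF1 Tet+ cells were the same transfectants kept in Tet. Mock Tet- and Mock Tet+ cells were HEK/Mock transfectants cultured without and with Tet. All groups were cultured for 48 h, and total RNA was hybridised as biotin-labelled cRNA to Illumina bead arrays. The sources used here do not say whether the transfectants were clones or pools, or whether the 3 replicates of a group were separate cultures. The p-values therefore reflect no more than the scatter among these samples, which may be technical. The number of arrays limits the precision.

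In the developing kidney, nephrons arise from a pool of self-renewing progenitor cells that cap the tips of the ureteric bud. OSR1, a zinc finger factor, marks the intermediate mesoderm before that pool forms, and PAX2 and PAX8, paired box factors, specify the nephric lineage. SALL1 and WT1, both zinc finger factors, act in the progenitors, and WT1 stays on in podocytes, the filter cells of the nephron. CITED1, a coactivator that binds CBP and p300, marks the least committed progenitors and is lost as they differentiate, while its relative CITED2 restrains hypoxia signalling by competing for the same partners. LHX1, a LIM homeodomain factor, is needed for the first epithelial structures of the nephron and for the ureteric bud. HEK293 cells are grown as a transfection host and are not nephron progenitors, so the members are described here as genes of this line.

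CITED1 and LHX1 were higher with RPF-1 switched on, CITED1 by 12.5-fold and LHX1 by 1.68-fold, and neither moved past the threshold when Tet was withdrawn from Mock cells. CITED2 and WT1 were detected on all 12 arrays and their differences did not pass in any of the 5 comparisons made. OSR1 lay at the edge of detection, and PAX2, PAX8 and SALL1 were not detected on any array. A probe counts as detected on an array when its detection p-value, which sets its signal against negative control beads, is under 0.05. Signals are given as log2 of the background-corrected and quantile normalized intensity, and levels of different probes are not set against each other. A gene is called here at an adjusted p under 0.05 by limma over all 13228 features tested, with no minimum fold.

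Each array detected 13568 to 14493 probes, and array correlations within groups were 0.989 to 0.996 across probes, which are not independent replicates. The arrays lay on 3 chips: chip 1 held Mock Tet+ 1 and 2, chip 3 held RPF1 Tet- 2 and 3, and chip 2 held the other 8. Chip 2 thus holds 1 array each of RPF1 Tet- and Mock Tet+, and a value within it assumes that a single array varies like the others. With chip as a fixed block the differences equal those on chip 2 alone, since chips 1 and 3 each hold arrays of 1 group. Both settings thus rest on the same single arrays and are not 2 separate checks, though their standard errors differ. Of 8 genes usually expressed by HEK293, 6 (NEFL, NEFM, KRT8, KRT18, VIM and GATA3) were detected on all 12 arrays, and INA and PAX2 on none. Of 7 blood markers on the array, 1 at most was detected on all arrays of a group. The summed signal of 6 fibroblast markers was 905 to 1125 in RPF1 Tet- and 1257 to 1958 in RPF1 Tet+. In Mock cells it was 1334 to 1570 without Tet and 1402 to 1505 with Tet. Of the 6, 2 were not detected on any RPF1 Tet- array and 4 on any RPF1 Tet+ array. The sum of 4 keratinocyte markers was 399 to 450 in RPF1 Tet-, 304 to 312 in RPF1 Tet+, 463 to 496 in Mock Tet- and 454 to 494 in Mock Tet+. Of these 4, 3 were not detected in any group. For 6 endothelial markers the sum was 634 to 716 in RPF1 Tet-, 686 to 836 in RPF1 Tet+, 623 to 659 in Mock Tet- and 566 to 621 in Mock Tet+. The part of these differences in the results was not tested.

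**Figure D1:**
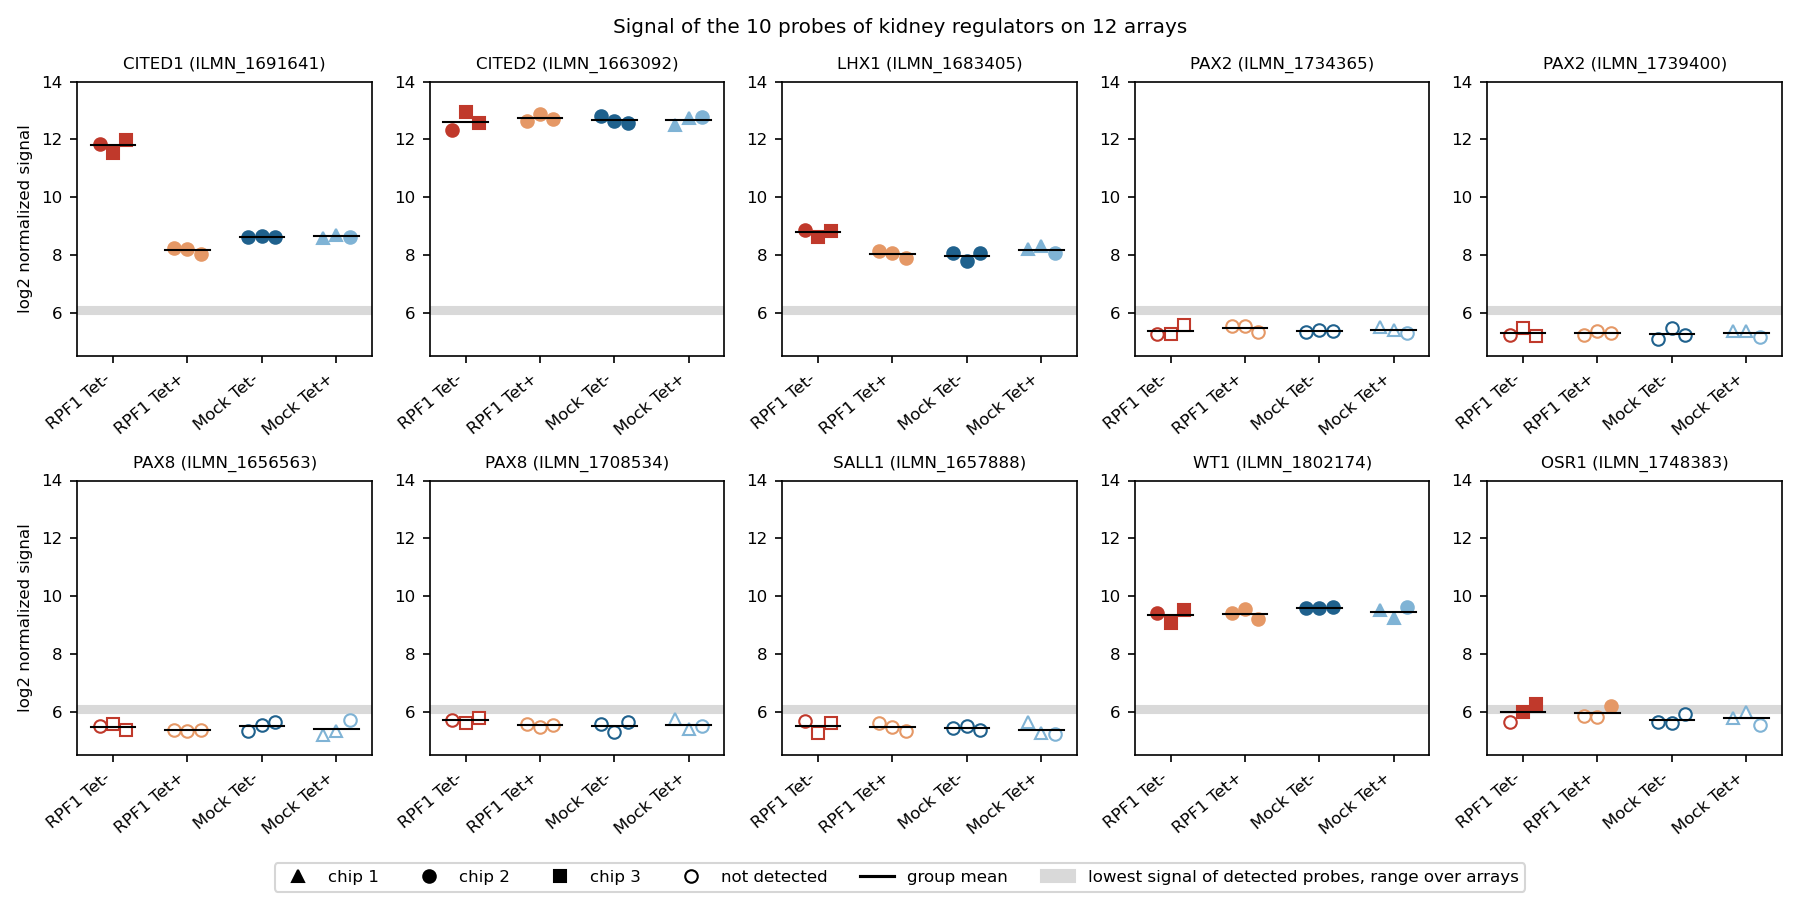
Log2 normalized signal of each of the 10 member probes (1 panel each) on 12 arrays, in the order RPF1 Tet-, RPF1 Tet+, Mock Tet-, Mock Tet+. Marker shape gives the chip, open markers are arrays where the probe was not detected, black lines are group means, and the grey band spans the lowest signal of detected probes, 5.94 to 6.20 over the arrays; CITED1 and LHX1 stand higher on the 3 RPF1 Tet- arrays, and the PAX2, PAX8 and SALL1 probes lie under the band.

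CITED1 lies on the X chromosome (GRCh38.p14 chrX:72301646-72307157, protein coding) and was read by 1 probe, ILMN_1691641. Its log2 signal was 11.85, 11.54 and 11.99 in RPF1 Tet- and 8.25, 8.19 and 8.02 in RPF1 Tet+. In Mock cells it was 8.63, 8.65 and 8.62 without Tet and 8.60, 8.70 and 8.63 with Tet. All 3 RPF1 Tet- arrays stood above all 9 others, with a gap of 2.84, or 7.17-fold, between the lowest RPF1 Tet- array and the highest other one. The probe was detected on every array, so the difference is a rise over a measured level and not an appearance from background. In bulk RNA, more cells with CITED1 RNA and more CITED1 RNA per cell cannot be told apart.

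The difference RPF1 Tet- minus RPF1 Tet+ for CITED1 was 3.64 (SE 0.11, 95% interval 3.40 to 3.88, limma adjusted p = 1.39e-08, n = 3 per group). It had the smallest p of all 13228 features and the 3rd largest absolute change among the 11824 features with a gene symbol. Against Mock cells without Tet the difference was 3.16 (SE 0.11, limma adjusted p = 1.35e-08, n = 3 per group), which is 8.94-fold. In Mock cells the withdrawal of Tet gave -0.01 (SE 0.11), with an interval of -0.25 to 0.23. The difference between these Tet effects, RPF1 minus Mock, was 3.65 (SE 0.15, 95% interval 3.32 to 3.99, limma adjusted p = 6.09e-07). On chip 2, the only chip with both RPF1 groups, the RPF1 Tet- array read 11.85 and the RPF1 Tet+ arrays 8.02 to 8.25, and with chip as a fixed block the difference was 3.70 (SE 0.17, limma adjusted p = 8.57e-06).

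The size of the fold depends on how background is handled. On the linear scale, RPF1 Tet- over RPF1 Tet+ was 12.6 in the background-corrected values, 9.55 in the unprocessed signals (means 3990 and 418) and 8.62 in the table of processed values that the authors deposited. Over 27 other settings the log2 difference ranged from 3.10 to 3.77.

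CITED1 also differed between the lines with Tet present. It was lower in RPF1 Tet+ (8.15 ± 0.12) than in Mock Tet+ (8.64 ± 0.05; SD, n = 3 each), a difference of -0.49 (SE 0.11, limma adjusted p = 0.0119), a fold of 1.41, and the 2 groups did not overlap. The call was lost with median scaling (limma adjusted p = 0.0506), with chip as a fixed block (-0.48, SE 0.17, limma adjusted p = 0.157) and on chip 2 alone (limma adjusted p = 0.105). In order of level, CITED1 was highest in RPF1 Tet-, then at overlapping levels in Mock Tet+ and Mock Tet-, and lowest in RPF1 Tet+, whose range lay below both.

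CITED2 (chr6:139371807-139374648, probe ILMN_1663092), the other CITED gene among the members, is a ubiquitous relative of CITED1. Its log2 signal was 12.32, 12.94 and 12.56 in RPF1 Tet-, 12.65, 12.88 and 12.71 in RPF1 Tet+, 12.79, 12.62 and 12.57 in Mock Tet- and 12.49, 12.73 and 12.76 in Mock Tet+. All 4 groups overlapped, and the order of their means was within their spread. RPF1 Tet- minus RPF1 Tet+ was -0.14 (SE 0.14, limma adjusted p = 0.575), with an interval of -0.46 to 0.18. The upper bound of that interval lies below the lower bound for CITED1, 3.40.

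The starts of these genes are shown because the levels of CITED1 and CITED2 differed in their response. Of the 8 members, CITED1, CITED2, PAX2, PAX8 and WT1 matched an entry in the RefSeq promoter table (GRCh38.p14), with 13 windows of 250 bases before to 50 bases after a start; LHX1, SALL1 and OSR1 did not. The windows were searched on both strands for TATAAA, the TATA box, for CCAAT, and for GGGCGG, the GC box. They were also searched for ATGCAAAT, the octamer bound by many POU factors, for TAATTA, a homeodomain palindrome, for ACGTG, the core of hypoxia response elements, and for GCGNGGGCG, a core bound by EGR1 and WT1. Below are 2 of the 3 CITED1 windows, those with a TATA box at -29 from the start, and the first of the 3 CITED2 windows, each 5′ to 3′ on the minus strand of GRCh38.p14, with matched letters in capitals.
CITED1 chrX:72307108-72307407: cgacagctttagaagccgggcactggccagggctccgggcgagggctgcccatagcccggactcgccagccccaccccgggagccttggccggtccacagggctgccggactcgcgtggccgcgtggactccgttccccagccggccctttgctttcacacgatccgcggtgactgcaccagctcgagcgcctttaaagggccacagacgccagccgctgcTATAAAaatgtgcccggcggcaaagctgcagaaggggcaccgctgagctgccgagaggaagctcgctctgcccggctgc
CITED1 chrX:72305865-72306164: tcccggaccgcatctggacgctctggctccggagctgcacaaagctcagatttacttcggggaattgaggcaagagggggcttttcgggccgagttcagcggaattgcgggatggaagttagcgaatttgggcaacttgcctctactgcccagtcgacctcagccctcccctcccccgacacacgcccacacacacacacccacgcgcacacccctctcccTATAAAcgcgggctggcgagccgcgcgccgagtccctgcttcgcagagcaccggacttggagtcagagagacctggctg
CITED2 chr6:139374599-139374898: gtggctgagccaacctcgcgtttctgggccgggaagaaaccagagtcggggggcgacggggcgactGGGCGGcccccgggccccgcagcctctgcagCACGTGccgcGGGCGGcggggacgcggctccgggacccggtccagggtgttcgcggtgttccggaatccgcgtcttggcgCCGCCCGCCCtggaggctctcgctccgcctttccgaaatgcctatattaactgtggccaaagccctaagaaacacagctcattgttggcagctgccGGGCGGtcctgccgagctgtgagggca

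In both CITED1 windows the capitals mark TATAAA. The remaining CITED1 window has TATAAA at -79, ACGTG at -72 and GGGCGG at 37, and 11.5% of the 35116 windows in the table hold TATAAA on either strand. The CITED2 window has no TATAAA and has GGGCGG or its complement at 5 positions, -184, -143, -73, -69 and 24, with ACGTG on both strands at -153 and -152. GGGCGG is held by 45% of all windows, and ACGTG by 21.4%. The first CITED1 window is 68.7% G and C and the CITED2 window 69.3%, against a median of 58.7% over all windows. The octamer ATGCAAAT was in none of the 13 member windows and is held by 1.77% of all windows; TAATTA was found in 1 WT1 window and GCGNGGGCG in another, at shares of 4.84% and 9.43%. These matches describe letters in short windows and no binding was measured.

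LHX1 (chr17:36936785-36944612, probe ILMN_1683405) was the other member called. Its log2 signal was 8.87, 8.62 and 8.83 in RPF1 Tet- and 8.13, 8.06 and 7.88 in RPF1 Tet+. In Mock cells it was 8.06, 7.80 and 8.06 without Tet and 8.20, 8.30 and 8.05 with Tet. The 3 RPF1 Tet- arrays again stood above all 9 others, while RPF1 Tet+, Mock Tet- and Mock Tet+ overlapped.

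RPF1 Tet- minus RPF1 Tet+ for LHX1 was 0.75 (SE 0.11, 95% interval 0.51 to 0.99, limma adjusted p = 0.00102, n = 3 per group), larger in size than 96.1% of features tested. Against Mock cells without Tet it was 0.80 (SE 0.11, limma adjusted p = 0.00038), a fold of 1.74. Withdrawal of Tet from Mock cells gave -0.21 (SE 0.11, 95% interval -0.45 to 0.04, limma adjusted p = 1), of the opposite sign. The difference of the Tet effects was 0.96 (SE 0.16, 95% interval 0.61 to 1.30, limma adjusted p = 0.00511), but with chip as a fixed block it did not pass (0.92, SE 0.22, limma adjusted p = 0.115), nor on chip 2 alone (limma adjusted p = 0.168). The change within the RPF1 line passed in both (0.85, SE 0.15 with the block, limma adjusted p = 0.0195 and 0.04).

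**Figure D2:**
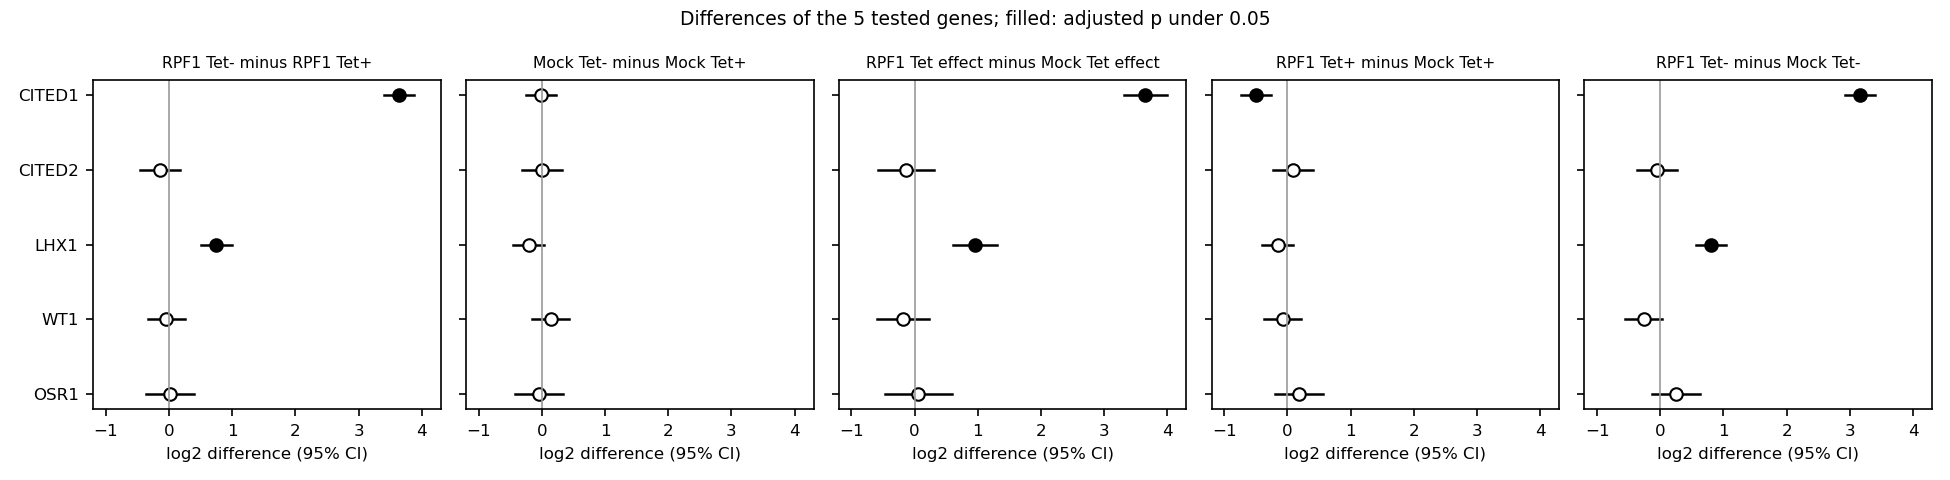
Log2 differences of the 5 tested members in the 5 comparisons (1 panel each), with 95% confidence intervals as bars and filled points where the adjusted p is under 0.05. CITED1 (3.64) and LHX1 (0.75) are filled in RPF1 Tet- minus RPF1 Tet+, no point is filled in Mock Tet- minus Mock Tet+, and CITED1 alone is filled, at -0.49, in RPF1 Tet+ minus Mock Tet+.

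WT1 (chr11:32387775-32435539, probe ILMN_1802174) is lost in part of Wilms tumours, a cancer that resembles nephron progenitors. Its log2 signal was 9.41, 9.08 and 9.52 in RPF1 Tet-, 9.41, 9.54 and 9.20 in RPF1 Tet+, 9.60, 9.58 and 9.63 in Mock Tet- and 9.52, 9.24 and 9.61 in Mock Tet+. Within the RPF1 line the groups overlapped, and RPF1 Tet- minus RPF1 Tet+ was -0.05 (SE 0.13, 95% interval -0.34 to 0.25, limma adjusted p = 0.865). The 3 RPF1 Tet- arrays lay below the 3 Mock Tet- arrays by a gap of 0.05, and that difference did not pass (-0.26, SE 0.13, limma adjusted p = 0.155). The single probe does not tell the splice forms of WT1 apart.

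OSR1 (chr2:19344874-19358623, probe ILMN_1748383) was detected on 3 arrays, RPF1 Tet- 2 and 3 and RPF1 Tet+ 3, and passed the detection filter on those alone. Its log2 signal was 5.65, 5.99 and 6.28 in RPF1 Tet- and 5.86, 5.80 and 6.20 in RPF1 Tet+, with 5.64, 5.62 and 5.92 in Mock Tet- and 5.78, 5.98 and 5.55 in Mock Tet+. All groups overlapped near the lowest signal of detected probes. RPF1 Tet- minus RPF1 Tet+ was 0.02 (SE 0.17, 95% interval -0.36 to 0.40, limma adjusted p = 0.964), a value between signals close to background.

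PAX2 (2 probes), PAX8 (2 probes) and SALL1 (1 probe) were not detected on any of the 12 arrays and had no value in the tests. The 2 PAX2 probes had log2 signals of 5.25 to 5.58 and 5.08 to 5.47, the 2 PAX8 probes 5.19 to 5.70 and 5.28 to 5.79, and the SALL1 probe 5.21 to 5.66. At this sensitivity a fall in these genes, or a rise that stayed under the detection limit, could not be seen in either line. A fit without the detection filter kept the brightest probe of each symbol, so the other PAX2 and PAX8 probes were not in it. There RPF1 Tet- minus RPF1 Tet+ was -0.10 for PAX2, 0.18 for PAX8 and 0.04 for SALL1, with limma adjusted p of 0.644, 0.41 and 0.925. The other PAX2 probe averaged 5.29 in both RPF1 groups, and the other PAX8 probe 5.47 in RPF1 Tet- and 5.36 in RPF1 Tet+. All of these are signals not above background.

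The members were chosen with earlier results of these data known, so their counts are a description and not independent evidence. Of the 5 tested members 2 were called in RPF1 Tet- minus RPF1 Tet+, both higher, where 13.4% of all features were called. In the difference of the Tet effects 2 of 5 were called, against 5.13% of all features. In RPF1 Tet- minus Mock Tet- 2 of 5 were called, against 31.3%, and in RPF1 Tet+ minus Mock Tet+ 1 of 5, against 15.1%. In Mock Tet- minus Mock Tet+ 0 members were called and 0% of all features; by limma 327 of the 13228 features, and no member, had an unadjusted p under 0.05. The groups did not overlap for 2 members in the first of these comparisons and for 3 in RPF1 Tet- minus Mock Tet-. The count was 1 in RPF1 Tet+ minus Mock Tet+ and 0 in Mock Tet- minus Mock Tet+. The share of all features without overlap was not computed, so these counts are a description of the members. The comparisons share arrays, so they are not independent.

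**Figure D3:**
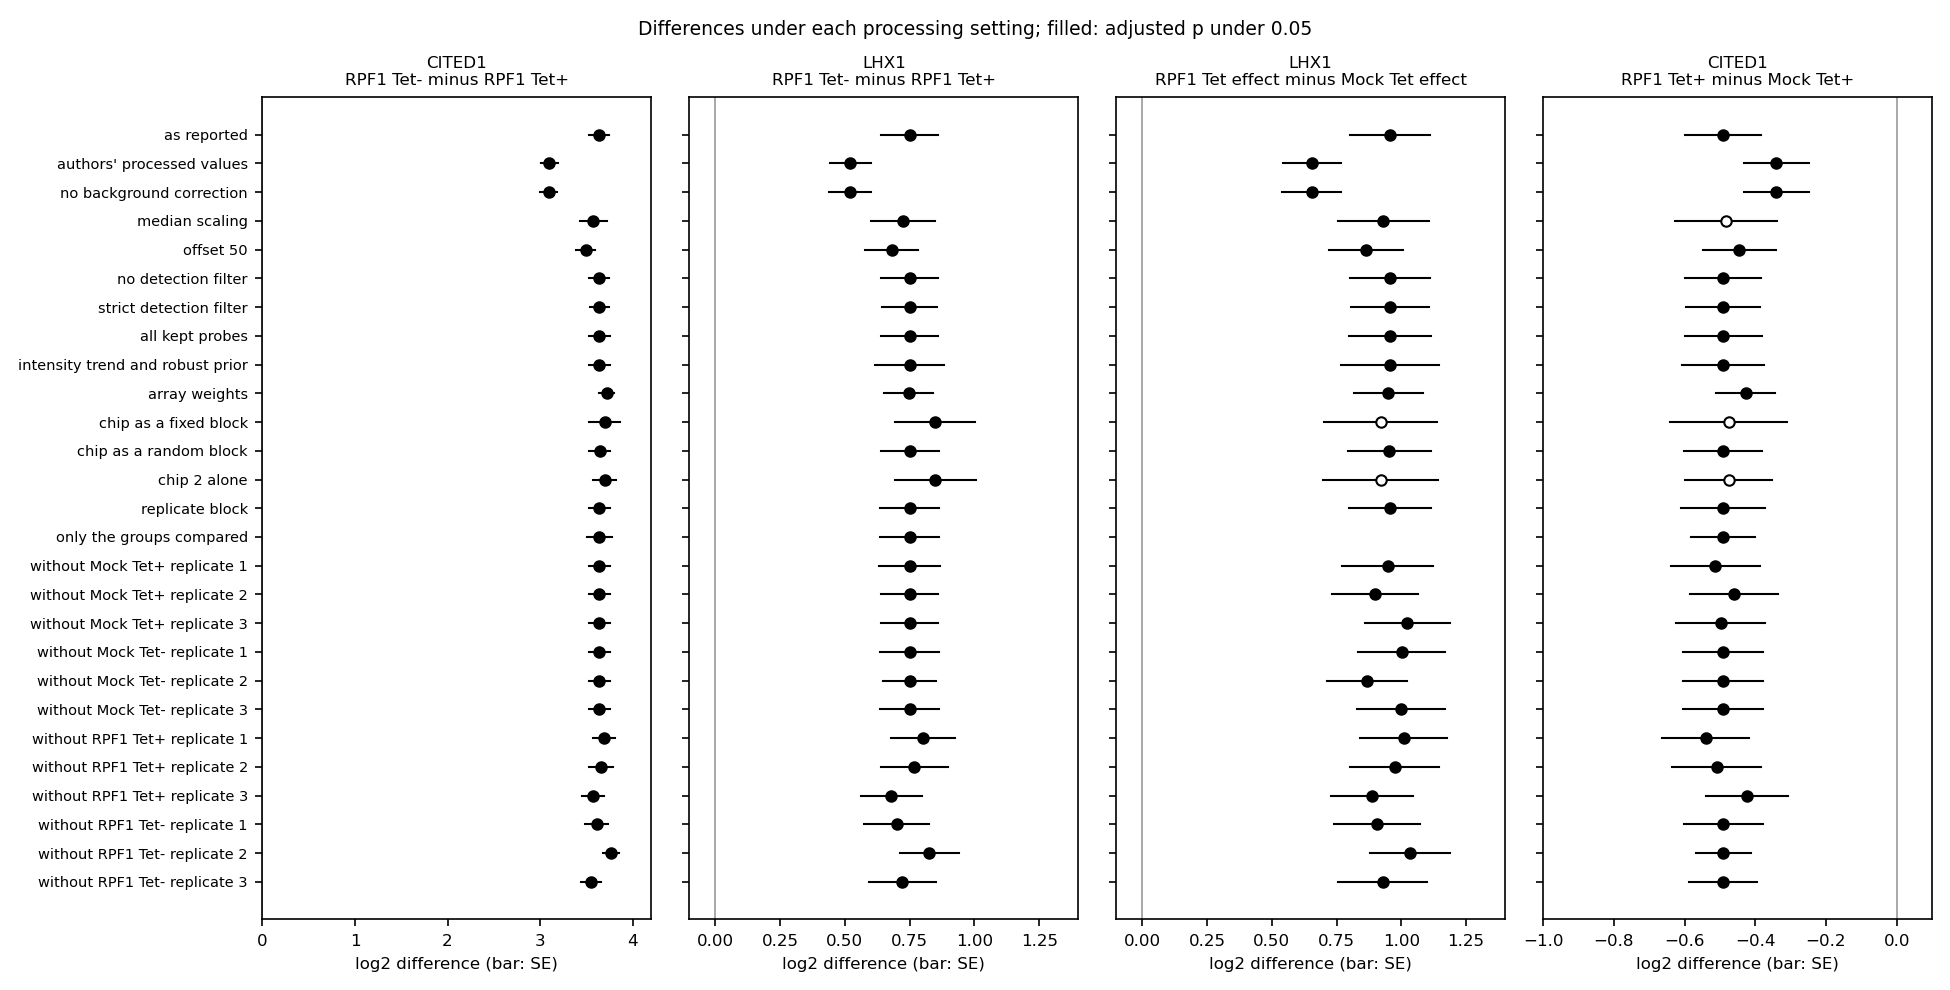
Log2 difference (point) with its standard error (bar) for 4 called differences of CITED1 and LHX1 under the reported setting (top) and each alternative but the minimum change; filled points have an adjusted p under 0.05, and a setting with no point has no value. CITED1 in RPF1 Tet- minus RPF1 Tet+ stays between 3.10 and 3.77 and is filled throughout, while LHX1 in the difference of the Tet effects opens with chip as a fixed block and on chip 2 alone, and CITED1 in RPF1 Tet+ minus Mock Tet+ in these and with median scaling.

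The genes whose pattern over the 12 arrays was most like that of CITED1 were sought by the root mean square difference of log2 signals, each gene centred on its own mean. The 5 closest were H2AC18 (0.27) and H2AC20 (0.36), both histone H2A genes, VGF (0.36), a neuropeptide precursor, NPPB (0.42), the precursor of brain natriuretic peptide, and ARC (0.45), an immediate early gene of neurons. For scale, the root mean square of CITED1 about its own mean was 1.45. RPF1 Tet- minus RPF1 Tet+ was 3.34 for H2AC18, 2.91 for H2AC20, 2.98 for VGF, 4.19 for NPPB and 2.52 for ARC.

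H2AC18 averaged 13.43 in RPF1 Tet-, 10.09 in RPF1 Tet+, 10.78 in Mock Tet- and 10.81 in Mock Tet+. Like CITED1 it was lowest in RPF1 Tet+. Histone genes have near-identical copies, so the signals of the H2A probes are uncertain as to which copy they read. ARC was detected on 1 of 3 RPF1 Tet+ arrays, 0 of 3 Mock Tet- arrays and 1 of 3 Mock Tet+ arrays, and VGF and NPPB were each undetected on 1 RPF1 Tet+ array, so their differences rest in part on values near background.

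For LHX1, whose own root mean square was 0.34, the 3 closest were UBASH3B (0.11), a phosphatase that dampens receptor signalling, EDA2R (0.12), a receptor of the tumour necrosis factor family, and ZNF124 (0.12), a zinc finger gene. They differed between RPF1 Tet- and RPF1 Tet+ by 0.60, 0.78 and 0.57. These genes were picked for likeness over these arrays, so their changes are a description.

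**Figure D4:**
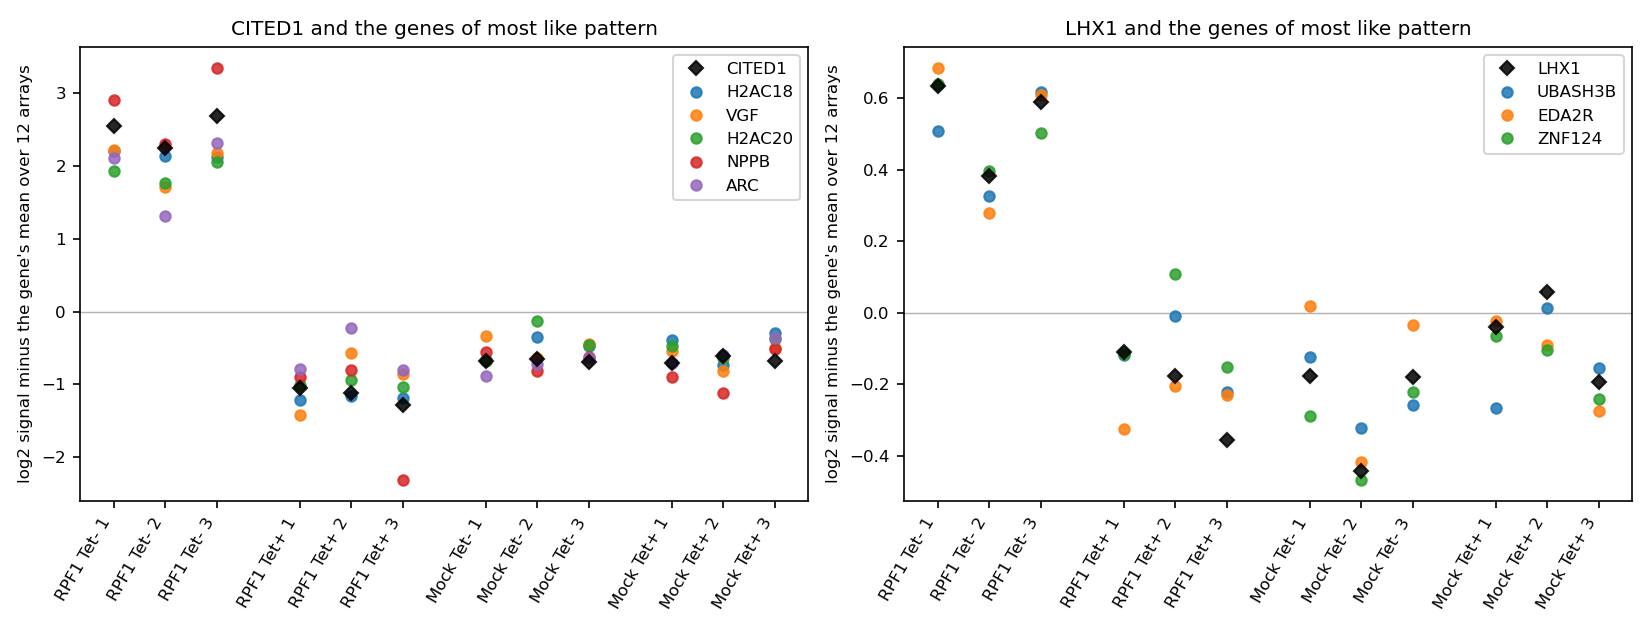
Log2 signal minus the gene's mean over 12 arrays (y axis) on each array (x axis), for CITED1 and its 5 closest genes (left) and LHX1 and its 3 closest genes (right); black diamonds are CITED1 or LHX1. On the left the RPF1 Tet- arrays stand apart from the 9 others for all 6 genes, and on the right the spans are narrower, since LHX1 changed by 0.75.

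Of 23 paralogs listed (other CITED, LIM homeobox, PAX, SALL and OSR genes) 14 were tested, and 1 rose and 0 fell in RPF1 Tet- minus RPF1 Tet+ (7.14% called against 13.4% of all features), with a median of 0.16 against -0.01 over all features. The one was LHX2, a LIM homeodomain factor of forebrain and eye, at 0.57 (SE 0.12, limma adjusted p = 0.011), a call lost with chip as a fixed block (limma adjusted p = 0.292). LHX2 was also lower in RPF1 Tet+ than in Mock Tet+, at -0.66 (SE 0.12, limma adjusted p = 0.00598), and SALL4, a stem cell relative of SALL1, was higher there by 0.55 (SE 0.14, limma adjusted p = 0.0258). Both of these calls were lost with the block (limma adjusted p = 0.102 and 0.0974), and that of SALL4 also without Mock Tet+ 1 or 3 or RPF1 Tet+ 1 or 3 (limma adjusted p 0.059 to 0.0945).

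Among proteins known to bind or act with the members, 23 genes were tested, and 5 rose and 3 fell (34.8% called against 13.4% of all features, median 0.04). With chip as a fixed block 2 of the 8 stayed called, 1 higher and 1 lower, where 3.18% of all features were called. SMAD2, which carries activin and TGF-beta signals and binds CITED proteins, fell by 1.54 (SE 0.18), with 6.93 ± 0.47 in RPF1 Tet- and 8.47 ± 0.08 in RPF1 Tet+ (SD, n = 3 each). TFAP2C, an AP-2 factor of the family that CITED proteins coactivate, rose by 0.84 (SE 0.11), with 10.63 ± 0.15 in RPF1 Tet- and 9.79 ± 0.20 in RPF1 Tet+. These were the 2 that stayed called with the block (limma adjusted p = 0.0203 for SMAD2 and 0.0172 for TFAP2C). SSBP3 (0.61, SE 0.13) and SSBP2 (-0.42, SE 0.09), which join LHX1 in complexes built on LDB1, were called in opposite directions. Both calls were lost with the block (limma adjusted p = 0.0848 for SSBP3 and 0.0682 for SSBP2). The other called genes, named to complete the list, were RBBP4 (0.39), TFAP2A (-0.38), CREBBP (0.36) and EP300 (0.36). Their limma adjusted p ran from 0.0063 to 0.0427, and all lost their calls with the block. TFAP2A, an AP-2 factor like TFAP2C, thus went the other way. In RPF1 Tet+ minus Mock Tet+ 1 of the 23 genes was called, 4.35% against 15.1% of all features. This was HDAC2, a subunit of the NuRD complex that SALL1 recruits, at 0.40 (SE 0.08, limma adjusted p = 0.00813). Its call was lost with the block (limma adjusted p = 0.13).

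Wider kidney development was read through 4 lists of genes, of which 74 genes were tested. The lists were put together with earlier results of these data known, and genes that had stood out, such as HES5, are on them, so their share of calls is a description and not independent evidence. In RPF1 Tet- minus RPF1 Tet+ 20 rose and 14 fell, 45.9% against 13.4% of all features, with a median of 0.07 against -0.01. With chip as a fixed block 11 of these 34 were called, 4 higher and 7 lower, where 3.18% of all features were called, and all 34 kept their sign. The count also fell to 20 without RPF1 Tet+ 1 and to 22 without RPF1 Tet- 3.

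Of 22 nephron progenitor genes 3 rose and 6 fell (40.9% called against 13.4% of all features, median -0.19). Of the 9, 3 stayed called with the block, all lower. EYA1, a transcriptional coactivator with phosphatase activity that progenitors require, fell by 1.91 (SE 0.16, limma adjusted p = 1.88e-05), with 8.19 ± 0.28 in RPF1 Tet- and 10.11 ± 0.30 in RPF1 Tet+ (SD, n = 3 each). DACH1, a corepressor that acts with EYA factors, fell by 1.73 (SE 0.21, limma adjusted p = 0.000279). EYA4 fell by 1.13 (SE 0.10, limma adjusted p = 3.39e-05). These 3 stayed called with the block, which rests on the same single RPF1 Tet- array as chip 2 alone. ROBO2, a SLIT receptor, was not detected in RPF1 Tet- and was at least 1.49-fold lower there than in RPF1 Tet+, a bound that was not tested. Its fitted difference, which uses the undetected signals, was -0.91 (SE 0.20, limma adjusted p = 0.0126). That call was lost with the block (limma adjusted p = 0.175) and without RPF1 Tet+ 1 (limma adjusted p = 0.0529).

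Of 21 ureteric bud and collecting duct genes 7 rose and 4 fell (52.4% called against 13.4% of all features, median 0.29). With chip as a fixed block 3 of the 11 stayed called, SOX8 higher and GREM1 and SLIT2 lower. The other rises kept their sign but lost their calls. GREM1, a secreted BMP antagonist that lets the bud grow out, fell by 2.10 (SE 0.26, limma adjusted p = 0.000362), with 6.56 ± 0.52 in RPF1 Tet- and 8.67 ± 0.42 in RPF1 Tet+ (SD, n = 3 each). SLIT2, the ligand of ROBO2, fell by 1.17 (SE 0.13), a call lost on chip 2 alone (limma adjusted p = 0.0553). SOX8, which acts with SOX9 in the branching bud, rose by 1.10 (SE 0.16, limma adjusted p = 0.00109) and stayed called with the block. GATA2 rose by 1.07 (SE 0.17, limma adjusted p = 0.00159), a call lost with the block (limma adjusted p = 0.0525).

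Of 23 genes of nephron differentiation 6 rose and 2 fell (34.8% called against 13.4% of all features, median 0.09). Of the 8, 4 stayed called with the block, 3 higher and 1 lower. HES5, a target of Notch signalling, averaged 11.24 ± 0.31 in RPF1 Tet- and 7.02 ± 1.01 in RPF1 Tet+ (SD, n = 3 each). Its difference was 4.22 (SE 0.38), and its RPF1 Tet+ arrays ranged from 6.30 to 8.18. The Notch ligand DLL1 differed by 1.65 (SE 0.13). LFNG, a glycosyltransferase that tunes Notch receptors, rose by 0.88 (SE 0.13), and BMP4, a ligand that opposes bud outgrowth, fell by 0.77 (SE 0.10). Of these 4, the first 3 stayed called with the block and on chip 2 alone, and BMP4 lost its call on chip 2 alone (limma adjusted p = 0.0592). The other tested Notch genes of the list, named after their values were seen, were NOTCH1, a receptor, which rose by 0.68 (limma adjusted p = 0.00274, and 0.0776 with the block), and 5 that did not pass. These were the ligands DLL4 (0.40) and JAG1 (0.36) and the targets HES1 (0.16), HEYL (0.11) and HEY1 (-0.15), with limma adjusted p of 0.0803 to 0.666.

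Of 8 kidney stroma genes 4 rose and 2 fell (75% called against 13.4% of all features, median 0.33). In the fit with the block COL3A1 alone of the 6 stayed called, and none of the 4 rises did. COL3A1, a fibrillar collagen, fell by 2.18 (SE 0.19, limma adjusted p = 2.97e-05), with 7.84 ± 0.36 in RPF1 Tet- and 10.01 ± 0.35 in RPF1 Tet+ (SD, n = 3 each). The calls of ACTA2, smooth muscle actin (0.97, SE 0.24), MEIS1, a homeodomain factor (-0.58, SE 0.13), and SFRP1, a secreted Wnt antagonist (0.47, SE 0.09), were lost with the block (limma adjusted p = 0.37 for ACTA2, 0.0558 for MEIS1 and 0.0825 for SFRP1). That of ACTA2 was also lost when RPF1 Tet+ 1, RPF1 Tet+ 2, RPF1 Tet- 2 or RPF1 Tet- 3 was left out (limma adjusted p 0.0578 to 0.0724).

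**Figure D5:**
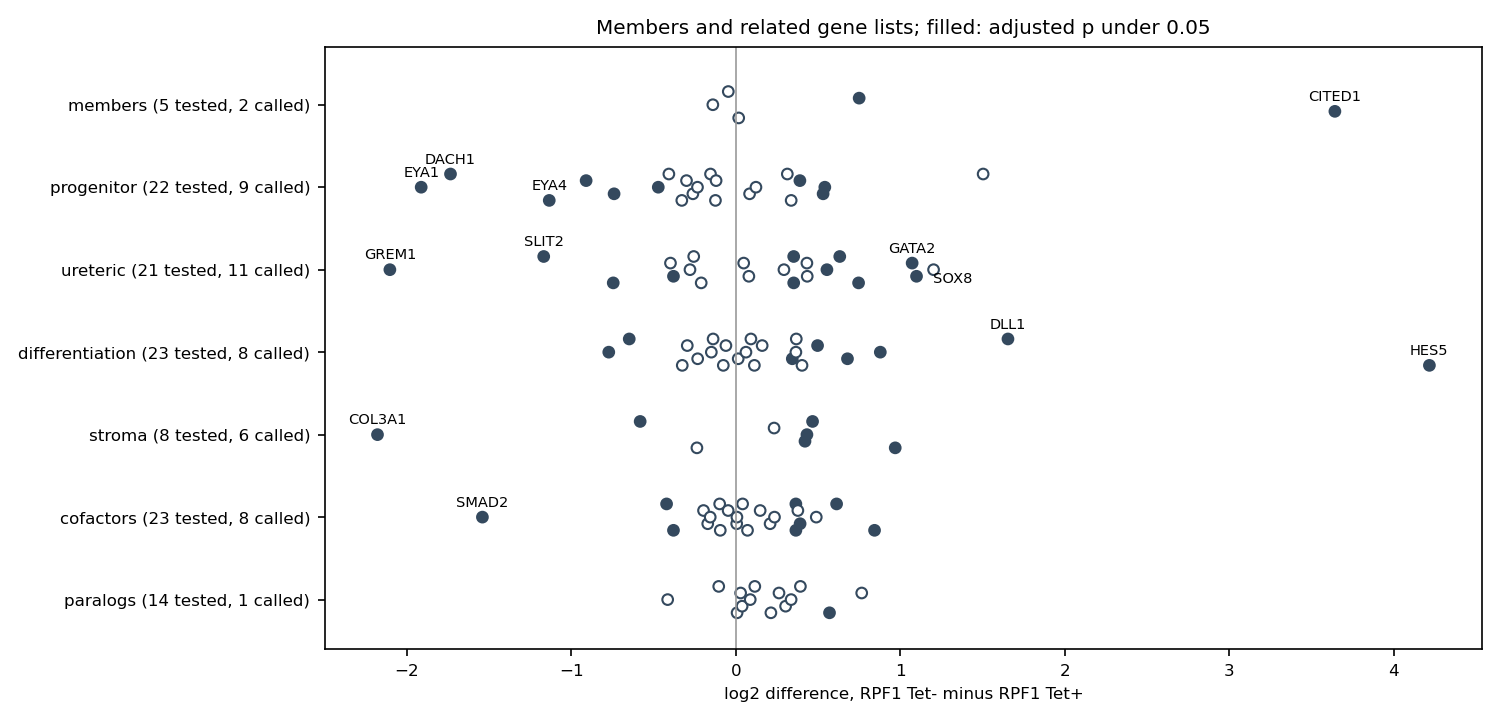
Log2 difference, RPF1 Tet- minus RPF1 Tet+ (x axis), of each tested gene (1 point each) of the members and 6 related lists (rows, points spread vertically for visibility); filled points have an adjusted p under 0.05, and called genes past 1 in size are named. CITED1, at 3.64, lies to the right of every gene of the lists but HES5, at 4.22, while EYA1, DACH1 and EYA4 of the progenitor list lie to the left.

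In the difference of the Tet effects 8 of the 74 kidney genes were higher and 9 lower, 23% against 5.13% of all features, and 3 were called with chip as a fixed block (0.741% of all features), namely EYA4 (-1.18, SE 0.15 without the block), DLL1 (1.72, SE 0.18) and COL3A1 (-2.17, SE 0.27). The count was 11 without Mock Tet+ 3, 11 without RPF1 Tet+ 1 and 10 without RPF1 Tet- 3. All 17 were also called, with the same sign, within the RPF1 line, a comparison that shares its arrays. HES5 (4.13, SE 0.54), GREM1 (-2.34, SE 0.37), EYA1 (-1.83, SE 0.23) and DACH1 (-1.64, SE 0.30) were called without the block and not with it (limma adjusted p = 0.0832, 0.191, 0.07 and 0.17). Among the 23 tested genes acting with the members, 4 were called, 3 higher and 1 lower, 17.4% against 5.13% of all features. The 3 of largest change were SMAD2 (-1.51, SE 0.25), TFAP2C (0.91, SE 0.16) and SSBP3 (0.75, SE 0.19). None of these 3 passed with the block (limma adjusted p = 0.205, 0.0832 and 0.325). The call of SSBP3 was also lost when any one of 9 arrays was left out (limma adjusted p 0.0573 to 0.102).

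With Tet present the RPF1 line differed from Mock cells in 8 of the 74, 5 higher and 3 lower, 10.8% against 15.1% of all features. NPNT, an integrin ligand of the bud (1.02, SE 0.13), GPC3, a glypican (0.84, SE 0.16), HEY1, a Notch target (0.64, SE 0.19), and EYA4 (0.55, SE 0.10) were higher in RPF1 Tet+. LGALS1, galectin 1 (-0.69, SE 0.13), LFNG (-0.58, SE 0.13) and LGR5, a Wnt-associated receptor detected on 2 of 3 RPF1 Tet+ arrays (-0.52, SE 0.12), were lower there. With chip as a fixed block 2 of the 8 passed, against 2.24% of all features, NPNT (limma adjusted p = 0.0163) and EYA4 (limma adjusted p = 0.0332). The call of LGR5 was also lost without Mock Tet+ 1 or RPF1 Tet+ 3 (limma adjusted p 0.0534 to 0.0649), and that of HEY1 when any one of 9 of the 12 arrays was left out (limma adjusted p 0.0553 to 0.159). EYA4 was thus higher in RPF1 Tet+ than in Mock Tet+ and, within the RPF1 line, lower in RPF1 Tet-, where it averaged 9.77 against 10.39 in Mock Tet-.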

How the data were processed

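Total RNA of 12 HEK293 samples was read on Illumina bead arrays. Per the file headers, the deposited tables give an intensity and a detection p-value for each probe and array without normalization; the submitters' processing notes name BeadStudio, with no version. The processed table that the authors deposited matched a quantile normalization of the linear signals (median difference 0.00626%, largest 2.11%). The members and lists were chosen with earlier results of these data known.

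Here background was corrected by limma's normexp model, inferred from the detection p-values, with an offset of 16, followed by quantile normalization and log2. Of 22184 probes, 14752 were detected (p under 0.05) on 3 or more arrays; the brightest kept probe of each symbol and all unnamed probes gave 13228 features. Of 10 member probes 5 passed, 1 each for 5 genes, OSR1 through RPF1 arrays alone. limma 3.58.1 in R 4.3.3 was fitted with 1 coefficient per group (8 residual degrees of freedom, prior 3.31), and p-values were adjusted by Benjamini-Hochberg over all features. The scripts were tested on simulated data. A gene not detected on any array of a group is given as a bound against the lowest signal of detected probes.

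Named genes follow a rule: all members, the called genes of largest change per list, up to 4 in RPF1 Tet- minus RPF1 Tet+ and up to 3 in RPF1 Tet+ minus Mock Tet+ and the difference of the Tet effects, and the 5 or 3 genes of most like pattern. Replicate numbers were not used to pair arrays. The correlation of deviations from group means was over 0.1 in 6 of 18 same-numbered pairs and ran from -0.40 to 0.41. It was positive in all 3 pairs of RPF1 Tet- with Mock Tet+ (0.14, 0.41 and 0.15). Chip differs in part with replicate number, so these values cannot decide whether same-numbered arrays belong together. No 2 arrays held identical values. Alternatives covered background, scaling, offset, filter, probes, variance model, weights, chip, replicate number, the groups fitted, a minimum log2 change of 1, and each array left out. RefSeq (GRCh38.p14) gave gene positions and promoter windows. No build is named for the probes.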

Additional observations from a re-analysis of the deposited data

Results flagged for a closer look

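The response to Tet withdrawal differed between the RPF1 and Mock lines for 2 members, each tested as the difference of the Tet effects. For CITED1 the difference was 3.65 on the log2 scale (limma adjusted p = 6.09e-07): Tet withdrawal gave 3.64 in RPF1 cells and -0.01 in Mock cells. For LHX1 it was 0.96 (limma adjusted p = 0.00511), with 0.75 in RPF1 cells and -0.21 in Mock cells, and it did not pass with chip as a fixed block (0.92, limma adjusted p = 0.115). For both genes all 3 RPF1 Tet- arrays lay above the 3 RPF1 Tet+ arrays.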

How the results depend on the processing

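CITED1 kept its call in RPF1 Tet- minus RPF1 Tet+, RPF1 Tet- minus Mock Tet- and the difference of the Tet effects under all alternatives run. With a minimum log2 change of 1 the members called were 1 in each of these 3 comparisons and 0 in RPF1 Tet+ minus Mock Tet+. With chip as a fixed block, and on chip 2 alone, 1 member was called in the difference of the Tet effects. In RPF1 Tet+ minus Mock Tet+ 0 were called under both of these and with median scaling. Leaving out each array in turn changed no member count (2, 0, 2, 1 and 2).

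Kidney genes called in RPF1 Tet- minus RPF1 Tet+ (34) came to 11 with chip as a fixed block, 10 on chip 2 alone and 10 with the minimum change, and to 20 to 32 without single arrays. In the difference of the Tet effects (17) they came to 29 with array weights, 3 with the chip block, 2 on chip 2 alone, 8 with the minimum change and 10 to 16 without single arrays. The median standard error of these genes in the first comparison was 0.184 with the chip block and 0.127 without it.

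Over all features the 1771 calls in RPF1 Tet- minus RPF1 Tet+ came to 421 with the chip block, 365 on chip 2 alone, 972 with only the groups compared, 3236 with array weights, 252 with the minimum change and 1134 to 1699 without single arrays. The 679 in the difference of the Tet effects came to 98, 76, 1488 with array weights, 231 with the minimum change and 417 to 663 without single arrays. The 2000 in RPF1 Tet+ minus Mock Tet+ came to 296, 131, 1256 with median scaling, 118 with the minimum change and 1095 to 2395 without single arrays. The 4135 in RPF1 Tet- minus Mock Tet- came to 1256, 1118 and 399 with the minimum change.

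Values that turned sign by 1 standard error or more were all uncalled, and all did so under the fixed chip block and on chip 2 alone: for WT1 -0.014 in Mock Tet- minus Mock Tet+ and 0.040 for the Tet effects' difference. For OSR1 they were -0.31 in RPF1 Tet- minus RPF1 Tet+, 0.18 in Mock Tet- minus Mock Tet+, -0.077 in RPF1 Tet- minus Mock Tet- and -0.49 for the Tet effects' difference. The causes were not tested. With a replicate block the members called were unchanged (2, 0, 2, 1 and 2). Kidney genes came to 29 in RPF1 Tet- minus RPF1 Tet+, where 1380 of all 13228 features were called. They came to 12 in the difference of the Tet effects, where 426 of all features were called. OSR1 has no value under the strict detection filter. Background signal limits OSR1, PAX2, PAX8 and SALL1.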
